A study of Mus musculus with 12 samples.

Results

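The 9 genes described here encode structural proteins of the myelin sheath, or membrane and cytoskeletal proteins of the cells that make it: Mbp, Mobp, Mal, Cldn11, Mag, Cnp, Mog, Opalin and Ermn. They were taken by name, as a fixed set, from the 54838 genes of the count files, and all 9 were among the 31109 genes that passed the filter on low counts. The libraries came from spinal cord of P60 mice after a Percoll gradient meant to enrich oligodendroglial cells. Control mice were Olig1+/+;Tet1fl/fl, labelled wildtype, and carried the floxed Tet1 alleles without Cre. Mutant mice were Olig1cre/+;Tet1fl/fl, labelled Tet1 cKO, so they lost Tet1 in the Olig1 lineage and also carried Cre at the Olig1 locus, which the controls did not. Each genotype had 3 libraries from tissue collected 4 days post lesion (4dpl) with lysolecithin, a detergent-like lipid that strips myelin, and 3 from unlesioned tissue, which per the study's methods was the contralateral side of the cord. The labels do not say which libraries shared an animal, so the p-values below measure the spread between these 12 libraries, which may in part be technical. Whether Tet1 loss alters the response of these cells to demyelination is the question that the genotypes address.

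Myelin is the multilayered membrane that oligodendrocytes wrap around axons in the central nervous system. Myelin basic protein (Mbp) binds the cytoplasmic faces of the membrane and draws them together, Mobp is a small basic protein of the same compact layers, and the tetraspan proteins Mal and Cldn11 serve membrane traffic and the tight junctions between the layers. Mag sits on the innermost membrane that faces the axon, Cnp keeps cytoplasmic channels open in the uncompacted parts, Mog lies on the outermost surface, and Opalin and Ermn are a membrane glycoprotein and an actin-associated protein of oligodendrocytes. Mbp and Mobp messenger RNAs are known to be carried along microtubules into the processes of the cell and translated there, whereas transcripts of membrane-spanning myelin proteins are translated at the endoplasmic reticulum near the nucleus. A lysolecithin lesion removes myelin and mature oligodendrocytes, draws in microglia and macrophages, and is followed by recruitment of progenitors that later form new myelin.

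In the mouse genome (GRCm38) Mobp spans chr9:120149707-120181484 on the plus strand, Cnp chr11:100574904-100591729 on the plus strand, Cldn11 chr3:31149920-31164324 on the plus strand, Mag chr7:30899176-30914873 on the minus strand, Mog chr17:37010743-37023398 on the minus strand, Opalin chr19:41062474-41077113 on the minus strand, and Mal and Ermn share chromosome 2, at chr2:127633226-127656695 and chr2:58045113-58052864 on the minus strand. The Mbp gene also gives rise to golli transcripts from an upstream start, and 1 count per gene does not separate them. The exons of 6 of the 9 genes overlapped no other annotated gene. Cnp shared 154 exon bases (4.23%) with Dnajc7 on the opposite strand, Mobp 79 bases (1.15%) with Gm38642, and Ermn 237 bases (6.52%) with Galnt5, so a few of their reads could not be told from those of the neighbours.

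Promoter windows from RefSeq (GRCm38.p6), 250 bases before to 50 after a transcription start, were found for 8 of the 9 genes. They were searched on both strands for ACAAAG and ACAATG, the core letters that SOX factors such as SOX10 recognize, and for CTGGCAC and CTGGTAC, letters recognized by MYRF, the factor that drives myelin genes. Any SOX core was present in 28.6% of the 32851 windows of this length and any MYRF match in 7.1%. Mobp held 6 SOX cores, all ACAAAG, and was the only window of the 32851 with as many. Opalin held 2 SOX cores and 1 MYRF match, Cnp 1 of each, Mag 1 of each at 2 of its 3 listed starts, Ermn 1 SOX core, and Mog 1 MYRF match. The windows of Mal and Cldn11 held none of the 4 words. A match is only a run of letters, and binding was not measured in these libraries. Below are the windows of Mobp, the only member called after lesion in controls, and of Cnp and Opalin, which stood with the genes that were not called. Capitals mark the matches, and CTTTGT and GTGCCAG are ACAAAG and CTGGCAC read on the opposite strand. The Mobp window is chr9:120149492-120149791 on the plus strand, that of Cnp chr11:100574689-100574988 on the plus strand, and that of Opalin chr19:41077064-41077363 on the minus strand.
Mobp: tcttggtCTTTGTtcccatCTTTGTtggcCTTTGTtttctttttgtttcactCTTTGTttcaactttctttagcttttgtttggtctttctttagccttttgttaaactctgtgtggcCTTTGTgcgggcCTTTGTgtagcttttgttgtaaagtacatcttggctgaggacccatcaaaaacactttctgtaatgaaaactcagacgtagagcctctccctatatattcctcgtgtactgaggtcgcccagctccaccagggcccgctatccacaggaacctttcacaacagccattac
Cnp: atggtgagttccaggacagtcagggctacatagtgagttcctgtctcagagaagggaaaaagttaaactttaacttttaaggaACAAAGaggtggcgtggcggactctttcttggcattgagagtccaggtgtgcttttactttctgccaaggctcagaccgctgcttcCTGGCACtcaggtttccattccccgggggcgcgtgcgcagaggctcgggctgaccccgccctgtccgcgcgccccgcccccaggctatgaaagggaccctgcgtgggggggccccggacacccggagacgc
Opalin: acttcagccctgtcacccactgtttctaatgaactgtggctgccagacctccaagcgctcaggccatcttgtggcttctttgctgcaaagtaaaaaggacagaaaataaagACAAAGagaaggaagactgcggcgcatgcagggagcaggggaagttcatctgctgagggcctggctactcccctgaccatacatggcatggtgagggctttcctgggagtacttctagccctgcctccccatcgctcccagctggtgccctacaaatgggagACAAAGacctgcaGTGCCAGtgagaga

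Library totals ran from 34805086 to 67251544 counts, and the 9 genes together took 0.93% to 3.16% of them. Levels below are CPM, counts relative to the library total scaled by TMM factors. Tet1 stood at 15.0, 14.9 and 18.3 CPM in the unlesioned control libraries, at 12.5, 11.7 and 12 in the control 4dpl libraries, at 16.4, 9.94 and 12.1 in the unlesioned mutant libraries, and at 13.4, 10.9 and 21.5 in the mutant 4dpl libraries. These overlapped between genotypes (adjusted p of 1 unlesioned and 0.905 at 4dpl), and a count over the whole gene in mixed cells is no check of a deletion of 1 exon in 1 lineage. Olig1, which carries Cre on 1 allele in the mutants, averaged 261 ± 67.6 CPM in unlesioned controls and 193 ± 102 in unlesioned mutants, and 196 ± 6.71 in control and 350 ± 238 in mutant 4dpl libraries (SD, n = 3). The libraries held other cells besides those of the label. A list of 10 blood cell genes summed to more than the 9 myelin genes in 12 of 12 libraries, with 30681 to 165962 CPM, and a list of 12 microglia and macrophage genes did so in 11 of 12, with 15878 to 36355 CPM. In such mixtures a lower level may come from fewer oligodendrocytes or from less RNA in each, and these cannot be told apart. Unlesioned mutant replicate 2 and mutant 4dpl replicate 3 stood apart from the other libraries of their groups in most of the 9 genes, so many of the results that rest on them are also given without both.

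Between genes, levels were compared per kilobase of exon (RPKM). The order below therefore depends on the exon length used for each gene, 8403 bases for Mbp and 3639 for Cnp. In CPM, which takes no account of length, Mbp averaged 3913 and Cnp 1787 in the unlesioned control libraries. In the unlesioned control libraries Cnp averaged 491 ± 62.0 RPKM and Mbp 466 ± 50.1 (SD, n = 3), and their ranges overlapped. Mag followed with 332 ± 40.2 and Mog with 306 ± 24.3, which also overlapped each other. Mal averaged 246 RPKM and Mobp 163, each apart from its neighbours in this order. Cldn11 at 101, Opalin at 84.8 and Ermn at 82.5 came last with overlapping ranges. At 4dpl in controls Mbp headed the order with 1152 ± 511 RPKM, apart from Cnp with 594 ± 64.6, while Mobp came next with 409, a level whose range overlapped those of Cnp and Mag. In the mutant libraries the ranges of nearly all neighbours in the order overlapped.

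**Figure D1:**
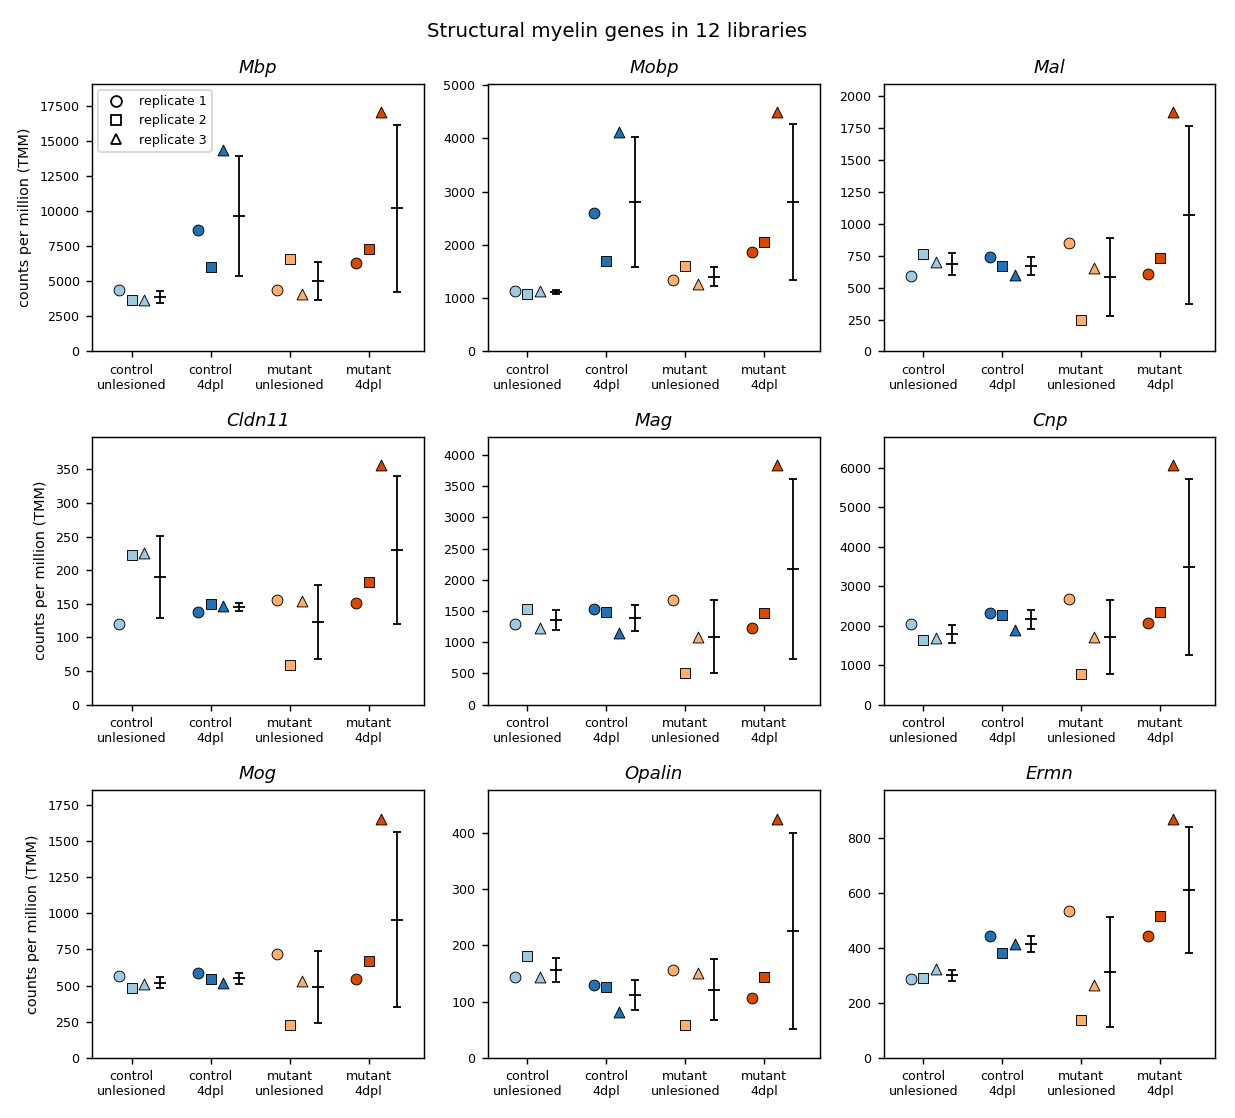
CPM (linear axis from 0, TMM scaled) of each of the 9 genes in 12 libraries. Circles, squares and triangles are replicates 1, 2 and 3, and the bars give the mean and SD of 3 libraries. Mbp and Mobp were higher in all 3 control 4dpl libraries than in all 3 unlesioned ones, the square of the unlesioned mutants was lowest for the other 7 genes, and the triangle of the mutant 4dpl group was highest for all 9.

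In control mice, the lesion was accompanied by higher Mobp and Mbp transcripts, of which Mobp alone passed the thresholds, and none of the other 7 genes did. Mobp stood at 1131, 1071 and 1140 CPM in the unlesioned control libraries and at 2597, 1696 and 4112 CPM in the 4dpl libraries. All 3 lesioned libraries were above all 3 unlesioned ones, and replicate 3 was the highest. The log2 difference was 1.33 ± 0.40 (SE), a 2.52-fold rise (adjusted p = 0.0484, edgeR quasi-likelihood test), and Mobp was the only 1 of the 9 genes that passed both thresholds, a p under 0.01 and an adjusted p under 0.05, which 10.1% of all genes tested passed and 5.12% passed as higher. The call was close to its threshold: it was lost in 10 of the 12 fits that left out 1 library, with adjusted p-values of 0.051 to 0.133, although the log2 difference stayed between 1.0 and 1.61.

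Mbp stood at 4398, 3642 and 3699 CPM in unlesioned controls and at 8643, 6007 and 14398 CPM at 4dpl. Again the libraries of the 2 conditions did not overlap and replicate 3 was the highest. The log2 difference was 1.31 ± 0.46 and missed both thresholds in edgeR (adjusted p = 0.0729), whereas DESeq2 on the same 12 libraries called it (log2 difference 1.25, adjusted p = 0.0153). Without control 4dpl replicate 3 the edgeR differences were 0.96 for Mbp and 1.0 for Mobp.

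Ermn, the actin-associated protein, stood at 286, 290 and 324 CPM in unlesioned controls and at 443, 383 and 414 CPM at 4dpl. These did not overlap either, but the log2 difference of 0.46 ± 0.40 did not pass (adjusted p = 0.409). Opalin stood at 144, 180 and 143 CPM and then at 130, 126 and 80.9 CPM, with all lesioned libraries below all unlesioned ones and a log2 difference of -0.48 ± 0.46 (adjusted p = 0.469). In the same comparison 16.5% of all genes had every lesioned library above every unlesioned one and 21.4% had every one below.

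The remaining 5 genes had overlapping libraries. Cldn11, of the tight junctions, stood at 119, 223 and 226 CPM unlesioned and at 138, 150 and 146 CPM lesioned, with a log2 difference of -0.39 ± 0.39. Cnp had a difference of 0.27 ± 0.46, Mog of 0.08 ± 0.43, Mag of 0.03 ± 0.46 and Mal of -0.03 ± 0.45. The median of the 9 genes was 0.08 against -0.36 for all genes tested. On the upper quartile and library total scalings the median of all genes in this comparison lay lower, at -0.71 and -0.70, and Mag, Mog and Cnp took negative values (-0.33, -0.26 and -0.06 on the upper quartile), so no direction is given for these 3. Mobp and Mbp were positive on every scaling, and the Mobp call was lost on each of the 3 other scalings, RLE (1.27, adjusted p = 0.0521), the upper quartile (0.98, adjusted p = 0.0832) and library totals (1.0, adjusted p = 0.0908).

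**Figure D2:**
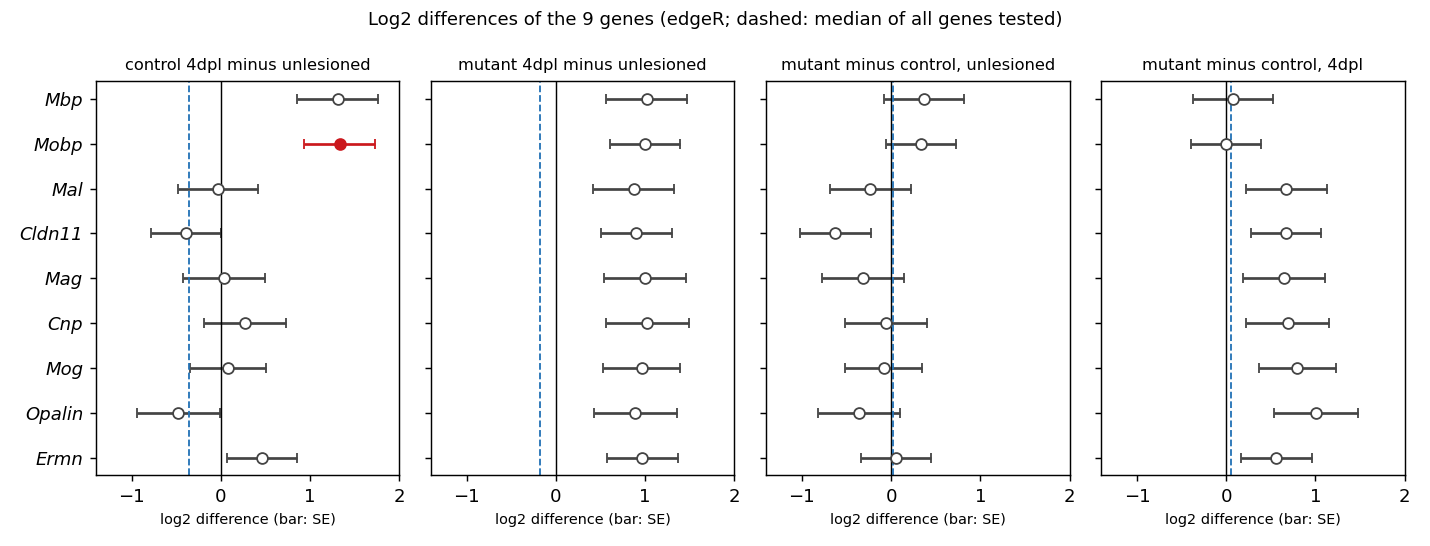
Log2 differences (x axis) of the 9 genes in 4 comparisons, with bars of 1 SE from the edgeR fit to 12 libraries. The filled red point, Mobp after lesion in controls, is the only call, dashed lines are medians of all genes tested, and in the mutant lesion panel all 9 genes lie between 0.87 and 1.03.

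In mutant mice all 9 genes had higher fitted levels at 4dpl, by nearly the same amount, and none passed the thresholds, which 0.135% of all genes did. The log2 differences lay between 0.87 (Mal) and 1.03 (Cnp), with SEs of 0.39 to 0.47 and adjusted p-values of 0.106 to 0.186. At an unadjusted p under 0.05, 7 of the 9 counted as higher, as did 15.9% of all genes. The median of the 9 was 0.97 against -0.18 for all genes.

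This uniform value rested on the pair of libraries that stood apart. Cnp stood at 2660, 773 and 1707 CPM in the unlesioned mutants and at 2072, 2337 and 6051 CPM at 4dpl. Replicate 2 was the lowest unlesioned library and replicate 3 by far the highest lesioned one, and the other 4 libraries overlapped. Mag ran the same way, with 1670, 509 and 1085 CPM unlesioned and 1224, 1463 and 3830 CPM lesioned. Mog stood at 721, 225 and 529 CPM and then at 547, 667 and 1655 CPM, and Opalin at 155, 58.7 and 150 CPM and then at 106, 143 and 426 CPM. Mal, Cldn11 and Ermn also had their lowest level of all 12 libraries in unlesioned mutant replicate 2 and their highest in mutant 4dpl replicate 3, so that each of these 7 genes spanned 6.02 to 7.83-fold between those libraries. Without both libraries, an alternative chosen after the values were seen, the log2 differences of the 7 genes in mutants lay between -0.28 (Opalin) and 0.28 (Ermn).

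Mbp and Mobp did not follow that pattern. Mbp stood at 4409, 6616 and 4130 CPM in the unlesioned mutants and at 6285, 7289 and 17070 CPM at 4dpl, and Mobp at 1337, 1602 and 1271 CPM and then at 1864, 2057 and 4491 CPM. Replicate 2 was here the highest unlesioned library, not the lowest, and Mobp was the only member whose lesioned libraries all lay above the unlesioned ones, as in 18.8% of all genes. The log2 differences were 1.02 ± 0.45 for Mbp (adjusted p = 0.136) and 1.0 ± 0.39 for Mobp (adjusted p = 0.106), and 0.68 and 0.60 without both libraries. Averaged over the genotypes, the lesion difference passed the thresholds for Mbp (1.16 ± 0.32, adjusted p = 0.0143) and Mobp (1.16 ± 0.28, adjusted p = 0.00802), 2 of the 9, where 32.8% of all genes passed and 14.2% as higher. Ermn, at 0.71 ± 0.28, had an adjusted p of 0.0543 and the other 6 genes 0.12 to 0.621. Both calls were kept without the 2 mutant libraries, with log2 differences of 1.0 and 0.97, and both were lost on the upper quartile (0.74 each) and library total scalings (0.77 and 0.76).

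Between genotypes no member passed the thresholds, and neither did any other gene (0% of 31109) by edgeR. In unlesioned tissue the mutant minus control differences ran from -0.62 ± 0.39 (Cldn11) to 0.37 ± 0.45 (Mbp), each with an adjusted p of 1, and 0 of 9 had an unadjusted p under 0.05, against 5.22% of all genes. DESeq2 on all 12 libraries called 45 genes here and none of the 9. Mobp, with 1337, 1602 and 1271 CPM in mutants against 1131, 1071 and 1140 in controls, was the only member without overlap, as were 4.09% of all genes in that direction, and its difference of 0.33 ± 0.39 was below its error.

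At 4dpl the 7 genes other than Mbp and Mobp had fitted mutant minus control differences of 0.56 (Ermn) to 1.01 (Opalin), with SEs of 0.39 to 0.47. Opalin had the smallest p (0.0484, adjusted p = 0.718) and was the only one under 0.05 unadjusted, against 6.92% of all genes. Cldn11, at 151, 182 and 356 CPM in mutants against 138, 150 and 146 in controls, was the only member without overlap, as were 7.34% of all genes, and its difference was 0.67 ± 0.39 (adjusted p = 0.831). Mbp and Mobp had differences of 0.08 ± 0.45 and 0.00 ± 0.39. DESeq2 on all 12 libraries called 227 genes and none of the 9. Without the mutant libraries that stood apart the differences of the 7 genes lay between -0.04 and 0.21, and those of Mbp and Mobp were -0.51 and -0.52.

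The test of whether the lesion difference itself differed between genotypes called no gene (0% of 31109) by edgeR or DESeq2, with 3.81% of all genes under an unadjusted p of 0.05. Of the members, only Cldn11 was below that level, with an interaction of 1.29 ± 0.56 (adjusted p = 1). Opalin followed with 1.37 ± 0.66 (adjusted p = 1). Mbp and Mobp had values of -0.29 ± 0.64 and -0.33 ± 0.55. The call for Mobp in controls and its absence in mutants was therefore not shown to be a difference between genotypes. The SEs of this test were 0.55 to 0.66 over the 9 genes.

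**Figure D3:**
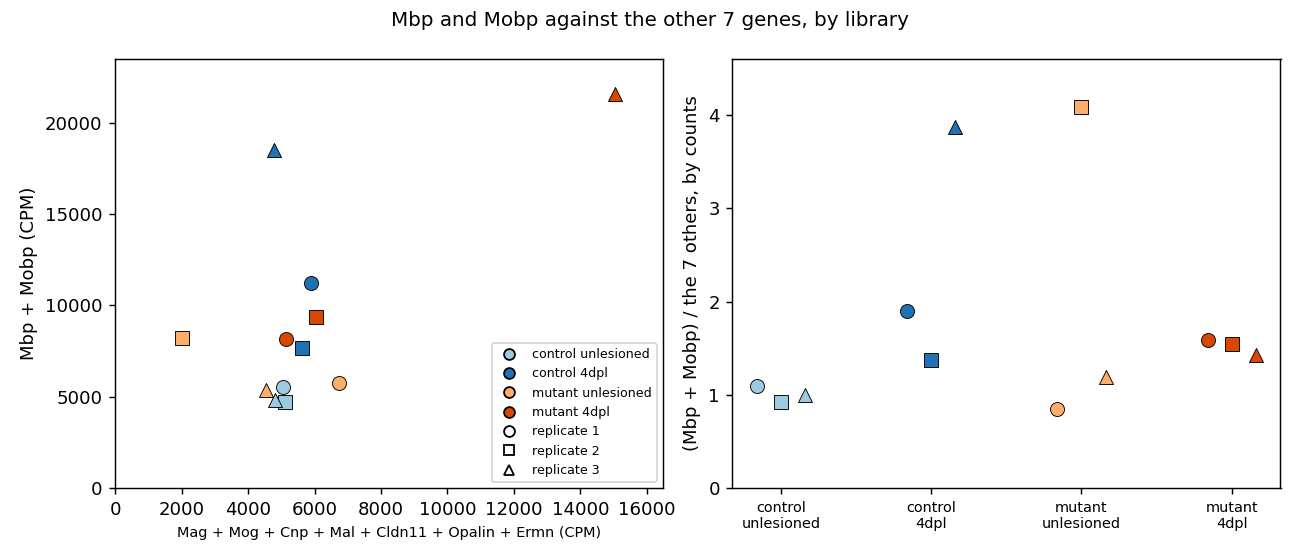
Left, summed CPM of Mbp and Mobp (y axis) against summed CPM of the other 7 genes (x axis) in 12 libraries. Right, the ratio of the counts of the pair to those of the 7, by group. The ratio was 0.85 to 1.19 in 5 of the 6 unlesioned libraries, 4.09 in unlesioned mutant replicate 2, and 1.37 to 3.87 in the lesioned libraries.

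The split between Mbp with Mobp and the other 7 genes was seen after the values were known and is given as a description. The ratio of the summed counts of the pair to those of the 7 needs no scaling between libraries. It was 1.10, 0.92 and 1.0 in unlesioned controls and 1.90, 1.37 and 3.87 in control 4dpl libraries. It was 0.85, 4.09 and 1.19 in unlesioned mutants and 1.58, 1.55 and 1.43 in mutant 4dpl libraries. In controls every lesioned library was above every unlesioned one. In mutants the lesioned libraries lay close together, above replicates 1 and 3 of the unlesioned ones and below replicate 2. The ratio of Mbp to Mobp counts moved little, between 3.24 and 4.13 over all 12 libraries (1.27-fold), whereas that of Mbp to Cnp ran from 1.66 to 8.56 (5.17-fold). Cnp to Mag ran from 1.06 to 1.69 (1.59-fold), and Opalin to Cnp, from 0.0428 to 0.11, varied 2.58-fold and was lowest in control 4dpl replicate 3.

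Mutant 4dpl replicate 3 and control 4dpl replicate 3 held about the same Mbp level, 17070 and 14398 CPM, but differed in the 7 genes, as in Cnp, with 6051 CPM in the former, 1892 CPM in the latter and 773 CPM in unlesioned mutant replicate 2. Unlesioned mutant replicate 2 thus combined the highest unlesioned Mbp and Mobp levels with the lowest levels of the 7 genes.

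**Figure D4:**
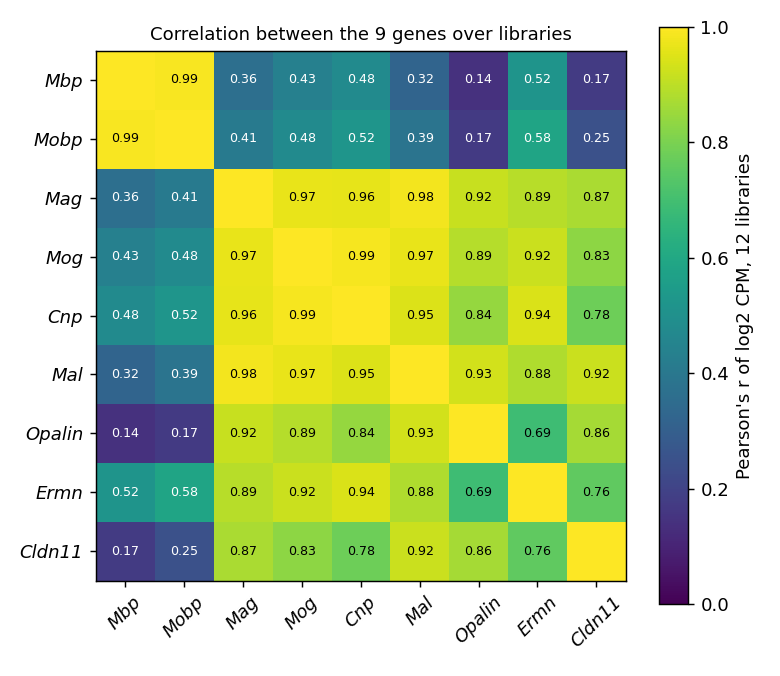
Pearson correlations (colour, 0 to 1) of log2 CPM between the 9 genes over 12 libraries. Mbp and Mobp form 1 block (0.99), the other 7 genes a second (0.69 to 0.99), and the 14 values between the blocks lie from 0.14 to 0.58.

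Over the 12 libraries, Mbp and Mobp correlated with r = 0.989, and with r = 0.975 after the group means were removed. The 21 pairs among the other 7 genes had a median r of 0.917 (0.69 to 0.99), with Opalin and Ermn the least alike, and the 14 pairs between the blocks a median of 0.398. These values describe 12 libraries that share cell mixture and depth. The block of 7 depended on the libraries that stood apart: over the 10 other libraries its median r fell to 0.465, with a range of -0.48 to 0.88, while Mbp and Mobp kept an r of 0.992 and the 14 values between ran from -0.85 to 0.55.

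Among 10103 other genes with a mean log2 CPM of at least 3, those most like the mean of all 9 members over the 12 libraries were Vldlr (r = 0.984), a lipoprotein receptor, Klk6 (0.980), a secreted protease of mature oligodendrocytes, and Aig1, Cpm, Efnb3, Prnp, Sccpdh, Dcaf17, Phactr1 and Ncald (0.973 to 0.980). When the mean of the 7 genes was used instead, an alternative added after the data were seen, none of these 10 remained. The list was then led by Syt11 (0.994), Larp6, Faah, Aplp1, Sept4 and Gjc3 (0.986 to 0.990), of which Gjc3 is a gap junction protein of myelinating cells, followed by Pcbp4, Pllp, Gamt and P4htm (0.981 to 0.985). With the mean of Mbp and Mobp it was led by Bcas1 (0.984), a protein of oligodendrocytes that are forming myelin, and Plekhb1 (0.979), followed by Aldoc, Scd1, 1110032A03Rik, Aktip, Kif5b, Kif5a, Map2k7 and Kif5c (0.901 to 0.956). Kif5a, Kif5b and Kif5c encode the heavy chains of kinesin-1, the motor that moves cargo outward along microtubules, and Scd1 is a fatty acid desaturase. Neither of the lists shared a gene with that of all 9 members. The lists hold for the 12 libraries, and none is given without the mutant libraries that stood apart. Over the 10 other libraries the median r among the 7 genes themselves was 0.465.

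Bcas1 stood at 118, 102 and 120 CPM in unlesioned controls and at 316, 183 and 566 CPM in control 4dpl libraries. It stood at 139, 222 and 115 CPM in unlesioned mutants and at 194, 219 and 474 CPM in mutant 4dpl libraries, so that unlesioned mutant replicate 2 was the highest of its group, as for Mbp and Mobp. Its lesion difference in controls was 1.65 ± 0.42 (adjusted p = 0.037), a 3.14-fold rise. Bcas1 correlated with the mean of the 7 genes with r = 0.257. Sox10 and Myrf, which encode factors whose core letters were searched above, correlated over the 12 libraries with the 7 genes with r = 0.958 and 0.970 and with Mbp and Mobp with r = 0.527 and 0.425. Without the mutant libraries that stood apart these values were 0.529 and 0.778 with the 7 genes and 0.516 and 0.0123 with the pair, while Bcas1 had an r of 0.994 with the pair.

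Other genes of the myelin and oligodendrocyte programme, and markers of other cells, were counted in lists. These counts stand beside a background of 10.1% of all genes called in control lesions, 5.12% as higher, and of 0.135% called in mutant lesions. With so few calls in mutants, a list with none there is not set against its count in controls, and no gene was called for the interaction. Of 18 further myelin genes, 1 rose and 1 fell in control lesions, none passed in mutant lesions, and the medians were 0.22 and 0.93 (log2). Cd9, a tetraspanin, rose by 1.06 ± 0.29 in controls (adjusted p = 0.0407). Of 18 enzymes and carriers of mature oligodendrocytes 1, Bcas1, rose in controls and none passed in mutants, with medians of 0.31 and 1.0. Tubb4a, a tubulin, and Apod, a lipid carrier, had differences of 0.24 and 0.25 in controls and of 1.04 and 0.90 in mutants, none of which passed. Of 10 oligodendrocyte transcription factors none passed in either genotype, with medians of 0.11 and 0.87. Olig1 had differences of -0.41 and 0.86 and Sox10 of 0.31 and 0.94. Over the 12 libraries the mean of the transcription factors correlated with the 7 genes with r = 0.982 and with Mbp and Mobp with r = 0.445, and over the 10 without those that stood apart with r = 0.749 and 0.0854. Without these libraries the medians of the 3 lists in mutant lesions were 0.052, 0.15 and 0.00056.

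**Figure D5:**
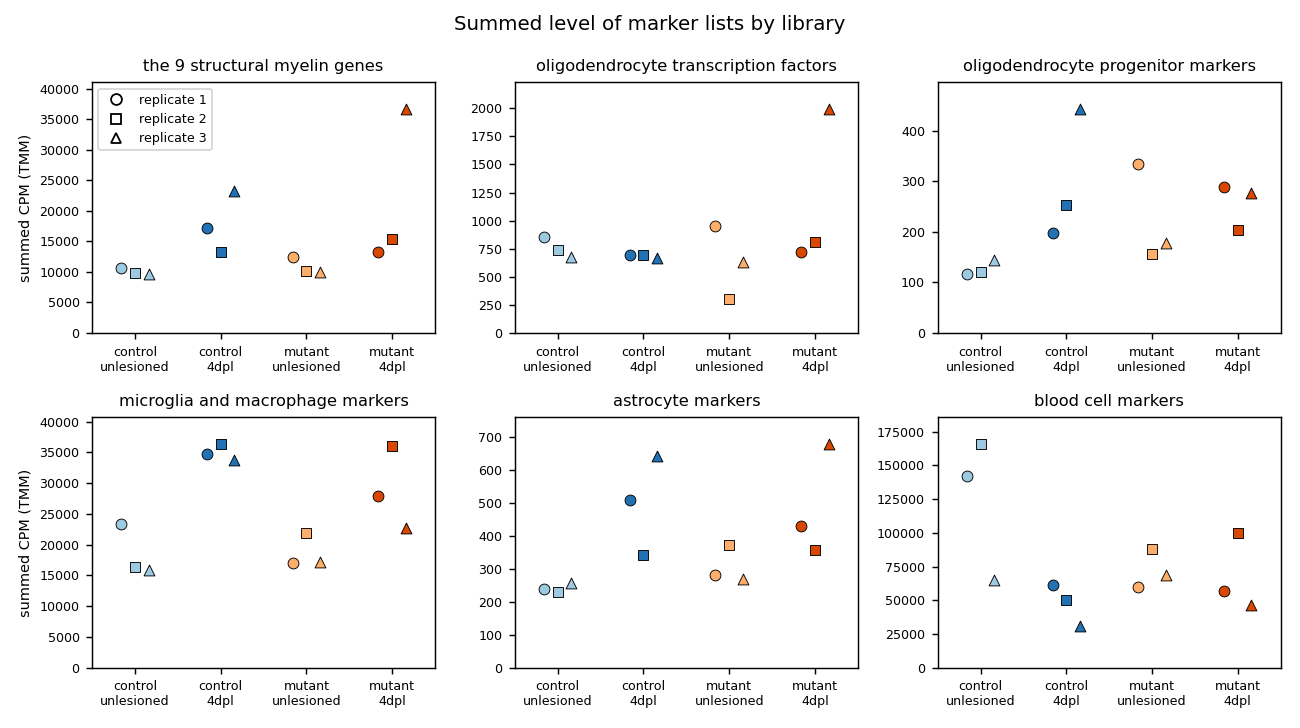
Summed CPM (linear axes from 0, TMM scaled) of the 9 myelin genes and of 5 marker lists in 12 libraries, with replicates 1, 2 and 3 as circles, squares and triangles. The 9 genes summed to 9659 to 12494 CPM in unlesioned and 13297 to 36620 CPM in lesioned libraries, and the triangle of the mutant 4dpl group was also highest for the transcription factors and the astrocyte list.

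Some markers of other cells rose after the control lesion as well, and their part in the myelin values was not tested. Of 12 progenitor markers 4 rose in control lesions and none passed in mutant lesions (medians 0.92 and 0.16). Gpr17, of committed progenitors, rose by 2.26 ± 0.54 and Cspg4 by 1.97 ± 0.45 in controls (adjusted p = 0.0336 and 0.0303). The list summed to 117 to 145 CPM in unlesioned and 198 to 443 CPM in lesioned controls, and to 157 to 334 and 204 to 288 CPM in mutants, so its level was small beside that of the myelin genes. Of 12 microglia and macrophage markers 3 rose in controls and none passed in mutants (medians 1.26 and 0.85). Csf1r rose by 1.54 ± 0.46 in controls (adjusted p = 0.0478) and Lyz2 had a difference of 0.61 (adjusted p = 0.376). That list summed to 15878 to 23355 CPM in unlesioned and 33781 to 36355 CPM in lesioned controls, and to 17095 to 21827 and 22764 to 36076 CPM in mutants. It was lowest among the lesioned libraries in mutant 4dpl replicate 3, the library with the most myelin transcripts.

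Of 12 astrocyte markers 2 rose in controls and none passed in mutants (medians 0.55 and 0.016). In controls 9 of the 12 were above 0, and in mutants 6. Gfap rose by 2.07 ± 0.35 (adjusted p = 0.0214), and Aldoc had a difference of 1.08 (adjusted p = 0.0559). The list summed to 230 to 257 CPM in unlesioned and 342 to 642 CPM in lesioned controls, and to 271 to 371 and 356 to 679 CPM in mutants. Its mean correlated with Mbp and Mobp with r = 0.744 and with the 7 genes with r = 0.216 over the 12 libraries, and with r = 0.660 and -0.0905 over the 10. With Mbp and Mobp, the microglia and macrophage list had r = 0.628 over the 12 and 0.827 over the 10. The progenitor list had 0.613 and 0.568, the neuron list 0.221 and 0.00673, and the Schwann cell list 0.104 and -0.164. The blood cell list had -0.547 and -0.591, and the endothelial and mural list -0.622 and -0.566. Of 10 blood cell markers none passed in either genotype, but their sums did not overlap in controls, with 65403 to 165962 CPM unlesioned and 30681 to 61293 CPM lesioned, against 59971 to 88197 and 46611 to 100098 CPM in mutants. Hbb-bs, a globin, and S100a8, of neutrophils, had differences of -1.36 and -1.42 in controls (adjusted p = 0.108 and 0.132).

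The other lists were small. Of 12 neuron markers none passed in either genotype, with sums of 102 to 281 CPM over all libraries, and medians of -0.19 in controls and -0.06 in mutants. In controls 5 of the 12 were above 0, among them Tubb3 and Map2, the most abundant pair of the list, with 0.42 and 0.53. Of 10 endothelial and mural markers 1, Col1a1, rose in controls (2.54 ± 0.43, adjusted p = 0.0219), and none in mutants. In controls 2 of the 10 were above 0 and the median was -0.44, in mutants 3 and -0.29, and Pecam1, with Col1a1 the most abundant of the list, had a difference of -0.12 in controls. Of 8 Schwann cell markers, 7 were tested and none passed in either genotype. Their sums were 340 to 527 CPM in unlesioned and 739 to 853 CPM in lesioned controls, and 337 to 734 and 721 to 1342 CPM in mutants. Pmp22 had a difference of 1.14 (adjusted p = 0.0502) and Ncam1 of 0.42 in controls, and most of that list's sum came from these genes, which are not particular to Schwann cells.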

How the data were processed

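RNA-seq of 12 mouse spinal cord preparations, 3 in each of 4 groups, was analysed from 1 table of raw counts per gene and library as deposited by the authors. Per the study's methods, reads were aligned to mm10 and uniquely aligned reads were assigned to Ensembl genes with featureCounts. The methods name BWA as the aligner, whereas the submitters' processing notes name STAR and DESeq2 1.2.5, so which aligner made the deposited counts is unclear. The deposited files also give each gene's exon length, in bases, used here for RPKM. The strand setting was not given in the sources used here. All 37 mitochondrial genes held a count of 0. Symbols were found for 54723 of 54838 genes.

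Totals were 34805086 to 67251544 counts. Genes were filtered with filterByExpr over the 4 groups, scaled by TMM and fitted in 1 quasi-likelihood model with a mean per group (edgeR 4.0.16 in R 4.3.3, 8 residual degrees of freedom). P-values were adjusted over all 31109 genes by Benjamini-Hochberg. Calls needed p under 0.01 and adjusted p under 0.05. Log2 CPM for correlations used a prior count of 1. SEs are the log2 difference over the square root of the F statistic. The model was tested on simulated data. Alternatives were DESeq2 1.42.0, limma-voom 3.58.1 with sample weights, other scalings, filters and thresholds, a replicate block, and leaving out libraries.

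The members and lists were chosen with earlier results of these data known. The text names all members, the 2 most abundant genes of each list, the 10 genes most like the members, Tet1 and Olig1. Not every gene named by that rule is reported here. Bcas1, Plekhb1, Myrf and the genes most like either block of members were named after their values were seen. Promoter words were counted in the RefSeq windows, and no window for Mbp was used here.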

Additional observations from a re-analysis of the deposited data

How the results depend on the processing

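Depth was not the limit for these genes, since each held at least 3129 counts in every library. Of the values recomputed under settings other than leaving out a library, 623 kept their direction and side of the threshold, 60 changed sign, 9 newly passed it and 10 no longer did, and the causes of the changes below were not tested. After control lesion the number of the 9 genes called, 1 with edgeR, was 2 (Mbp and Mobp) with DESeq2 on all 12 libraries or on the 2 groups, with limma-voom, at an adjusted p under 0.10 and without the 2 mutant libraries that stood apart. It was 0 with edgeR fitted to the 2 groups alone, RLE, upper quartile or library total scaling, and a minimum of 10 counts in every library. Leaving out 1 library gave 0 to 1. After mutant lesion the count of 0 became 1 (Ermn) with limma-voom, and 0 to 1 when 1 library was left out (Ermn, 1.63, adjusted p = 0.0322, without unlesioned mutant replicate 1). Averaged over genotypes the count of 2 became 0 on the upper quartile and library totals, 3 (with Ermn) with no filter, limma-voom or an adjusted p under 0.10, 1 with at least 10 counts in every library, and 1 to 3 with 1 library left out, the 1 being without control 4dpl replicate 3 and the 3 without unlesioned mutant replicate 1. The counts between genotypes and for the interaction stayed at 0 in each setting run, leaving out 1 library included. Of the 10 genes most like the members, 3 were shared by rank correlation, 0 by likeness to the 7 genes and 0 by likeness to Mbp and Mobp. The upper quartile and library totals moved the median of all genes in the lesion comparisons to between -0.71 and -0.64, and the share of calls that were higher after control lesion from 50.5% to 21.5% and 16.9%, after mutant lesion from 16.7% to 3.03% and 2.13%, and averaged over genotypes from 43.4% to 11.6% and 8.23%.

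The values below changed sign. After control lesion Mag, 0.03 in the main fit, was -0.028 with DESeq2 on all libraries and with RLE, -0.037 (DESeq2) and -0.042 (edgeR) when only the compared groups were fitted, -0.33 on the upper quartile, -0.31 on library totals, -0.25 with at least 10 counts and -0.050 with limma-voom, and -0.022 to 0.19 with 1 library left out. Mog was -0.26, -0.25 and -0.19 on the upper quartile, library totals and at least 10 counts, and Cnp -0.063 and -0.050 on the first 2. Mal was 0.088 with no filter and -0.10 to 0.082 with 1 library left out. Averaged over genotypes, the upper quartile gave Mal -0.00011, Cldn11 -0.18 and Opalin -0.22. Library totals gave -0.0093, -0.19 and -0.22, and at least 10 counts gave Cldn11 -0.046 and Opalin -0.088. Opalin was -0.15 with limma-voom and -0.20 to 0.40 with 1 library left out.

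In the unlesioned genotype comparison, library totals gave Mog 0.066 and Cnp 0.096, and limma-voom gave Ermn -0.15. With 1 library left out the ranges were -0.77 to 0.031 for Mag, -0.48 to 0.27 for Mog, -0.54 to 0.29 for Cnp, -0.62 to 0.14 for Mal and -0.58 to 0.42 for Ermn, the ends being without unlesioned mutant replicate 1 and replicate 2. At 4dpl, Mobp was -0.041 with DESeq2 on all libraries and with RLE, -0.020 (DESeq2) and -0.0052 (edgeR) when only the compared groups were fitted, -0.10 on the upper quartile, -0.027 on library totals, -0.098 with no filter, -0.025 with at least 10 counts and -0.24 with limma-voom. Mbp was -0.030 on the upper quartile, -0.023 with no filter and -0.22 with limma-voom. With 1 library left out the ranges were -0.51 to 0.39 for Mbp, -0.52 to 0.30 for Mobp, -0.045 to 0.94 for Mag and -0.0082 to 0.96 for Mal, the low ends being without mutant 4dpl replicate 3.

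Without the 2 mutant libraries that stood apart, the mutant lesion differences were -0.026 for Mag, -0.031 for Mog, -0.16 for Mal and -0.28 for Opalin. The unlesioned genotype differences were 0.032 for Mag, 0.27 for Mog, 0.29 for Cnp and 0.14 for Mal. At 4dpl they were -0.51 for Mbp, -0.045 for Mag, -0.52 for Mobp and -0.0073 for Mal. The interaction was -0.076 for Mag, -0.13 for Mog, -0.27 for Cnp, -0.14 for Mal and -0.20 for Ermn, and the averaged lesion difference -0.088 for Mal, -0.13 for Cldn11 and -0.37 for Opalin.

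Over all genes, calls after control lesion numbered 3150 with edgeR, 6996 and 5318 with DESeq2 (all libraries, then the 2 groups alone), 1162 with edgeR on the 2 groups, 1295 with at least 10 counts, 5948 with the newer edgeR fit, 9663 with limma-voom, 7565 at an adjusted p under 0.10 and 1 to 7401 with 1 library left out. After mutant lesion they numbered 42, 5295, 5037, 772, 33, 4430, 6800, 6402 and 0 to 4498 in the same order, and 957, 705 and 947 on the upper quartile, on library totals and with no filter. Averaged over genotypes the 10194 calls became 3591 with at least 10 counts and 16371 at an adjusted p under 0.10. Between genotypes the calls, 0 with edgeR, numbered 45 and 12 in unlesioned tissue and 227 and 611 at 4dpl with DESeq2, 0 and 34 with limma-voom, and at most 9 and 48 in the other settings.

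Replicate numbers in the labels were not shown to pair libraries, and the study's sample list numbers some of them differently, so the values here hold for the labels' numbers alone. Deviations of same-numbered libraries from their group means correlated with -0.072 to 0.21. With the number as a replicate block the counts of the 9 genes called were unchanged in each comparison (1 after control lesion). Ermn became -0.043 in the unlesioned genotype comparison and Mobp -0.019 at 4dpl, and calls over all genes after mutant lesion fell from 42 to 0, or to 4 with the block nested in genotype.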
